A study of Homo sapiens with 6 samples.

Results

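The 41 genes described here encode clotting factors, their inhibitors, the proteins that dissolve clots, 2 receptors for clotting proteases and 4 proteins that modify or export clotting factors. They were taken by symbol, and 40 had rows among the 18030 genes of the count table, with 153 of its 80668 transcripts. F9 was not analysed here. The 40 comprise 15 procoagulant genes, 12 anticoagulants and protease inhibitors, 7 fibrinolysis genes, 2 protease-activated receptors and 4 carboxylation and secretion genes.

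Messenger RNA was sequenced from Huh-7, an established human hepatocellular carcinoma line, in 3 oeALKBH5 libraries and 3 control libraries. oeALKBH5 cells had received an overexpression plasmid for ALKBH5, a demethylase that removes N6-methyladenosine from RNA, by electroporation. The control cells carry the genotype label WT and are called parental in the series design. All 6 samples grew in the same serum-supplemented medium, are labelled untreated, and have the electroporation text beside them, so whether the controls were electroporated or given an empty plasmid is not stated. Only 1 line was used, and the oeALKBH5 cells are an electroporated population. The titles call the replicates biological, but separate cultures are not mentioned, so the p-values cover only the variation among these 6 samples, and that may be technical.

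Clotting is a cascade in which one protease activates the next until thrombin cuts fibrinogen into fibrin. Hepatocytes secrete most of the circulating factors, fibrinogen, the serpin inhibitors and plasminogen, while thrombomodulin, von Willebrand factor and factor VIII come largely from endothelium. Antithrombin, the protein C system and tissue factor pathway inhibitor restrain the cascade, and plasmin, made from plasminogen by the activators encoded by PLAT and PLAU, dissolves fibrin.

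Sequencing depth, as estimated counts summed over genes, was 18607084 to 18826479 in the oeALKBH5 libraries and 19265686 to 19378030 in the control libraries. ALKBH5 was at 169, 133 and 110 CPM (read counts relative to library size, scaled between libraries by the TMM method) in oeALKBH5 and at 70.5, 74.2 and 75.5 CPM in control. Pairs of oeALKBH5 libraries were 3.25 to 7.94 apart by chi-square divided by its degrees of freedom, and pairs of control libraries 1.68 to 2.43. Liver identity was present in all 6 libraries: the 10 hepatocyte markers summed to 18285 to 19597 CPM in oeALKBH5 and to 26955 to 27452 CPM in control, and 9 of the 10 fell by edgeR's quasi-likelihood test at an adjusted p under 0.05. This fall moved with the coagulation genes, and its part in their changes was not tested. In a bulk culture, fewer cells of a type and less RNA per cell cannot be told apart. Endothelial markers, a list of 6 measured genes, summed to 11.6 to 12.3 CPM in oeALKBH5 and 17.5 to 21.3 CPM in control, mostly PECAM1, with KDR and TEK at 0 in 5 libraries each. The 5 platelet markers summed to 1.88 to 2.18 CPM in oeALKBH5 and 1.21 to 1.29 CPM in control. Macrophage and leukocyte markers (5 genes) summed to 138 to 162 CPM in oeALKBH5 and 146 to 150 CPM in control. Most of this was CD68, at 129 to 154 CPM in oeALKBH5 and 136 to 140 CPM in control. Fibroblast and stellate markers (6 genes) summed to 29.2 to 29.3 CPM in oeALKBH5 and 22.6 to 24.1 CPM in control. They did not move together by edgeR: COL1A1 and COL1A2 rose (log2 fold change 1.07 and 0.92), LUM fell (-0.55) and PDGFRB did not pass. DCN and ACTA2 were not tested.

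Most of the changed coagulation genes were lower in oeALKBH5 cells. Of the 40 genes, 39 passed the filter on low counts, and 18 of these fell, 5 rose and 16 did not pass the test. Across all 14168 tested genes, 42.8% passed, 22% lower and 20.8% higher, so a call in itself was common in this comparison. The median log2 fold change was -0.07 over the 39 genes and 0.0062 over all tested genes. Changes of at least 0.5 on the log2 scale were found for 8 genes, 7 that fell and 1 that rose, where 9.61% of all tested genes did so, 4.08% lower and 5.53% higher. In 23 of the 39 genes the CPM values of the groups did not overlap, against 52.8% of all tested genes. The members together took 1.05%, 1.10% and 1.10% of the estimated counts in oeALKBH5 replicates 1 to 3 and 1.42%, 1.42% and 1.44% in control replicates 1 to 3. The 3 fibrinogen genes and SERPINA1 held 67.5% to 68.1% of these counts in oeALKBH5 and 71.9% to 72.0% in control.

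**Figure D1:**
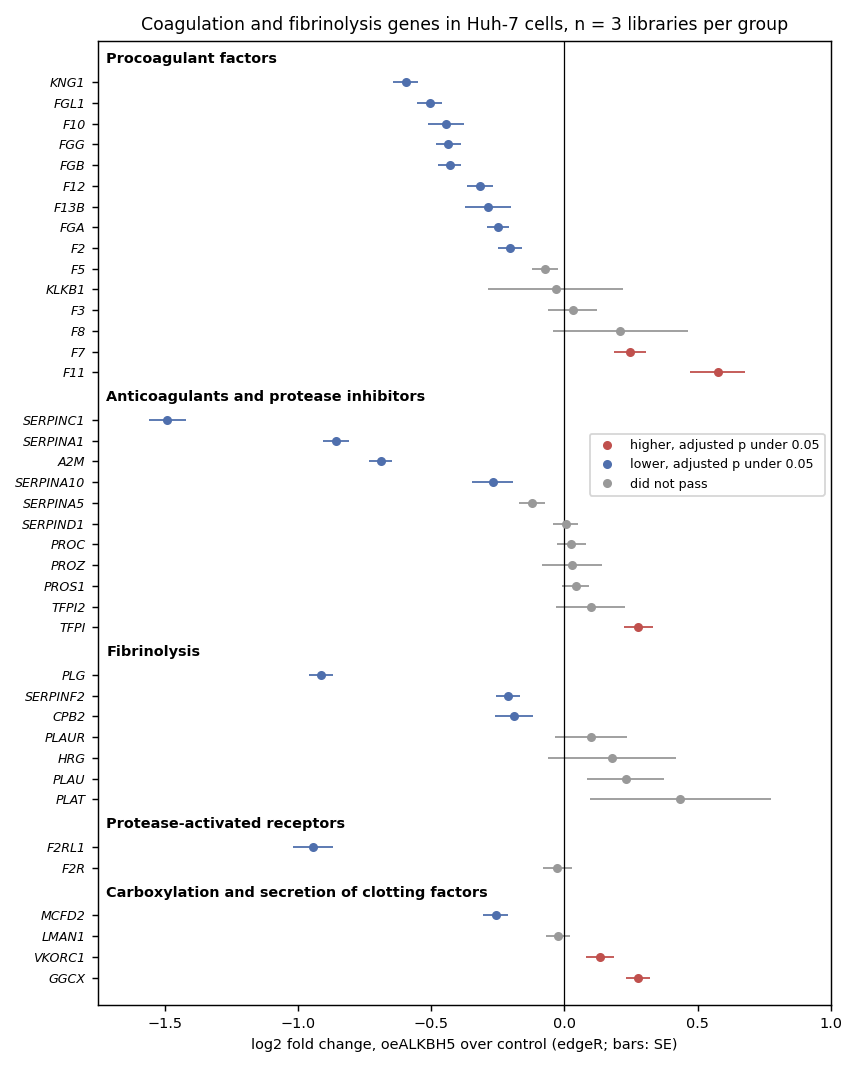
Log2 fold change of oeALKBH5 over control for the 39 tested genes, grouped by role; points are edgeR estimates, horizontal bars are standard errors, and colours give the call at an adjusted p under 0.05. Values ran from -1.49 for SERPINC1 to 0.58 for F11, and blue points to the left (18 genes) outnumber red points to the right (5 genes).

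**Figure D2:**
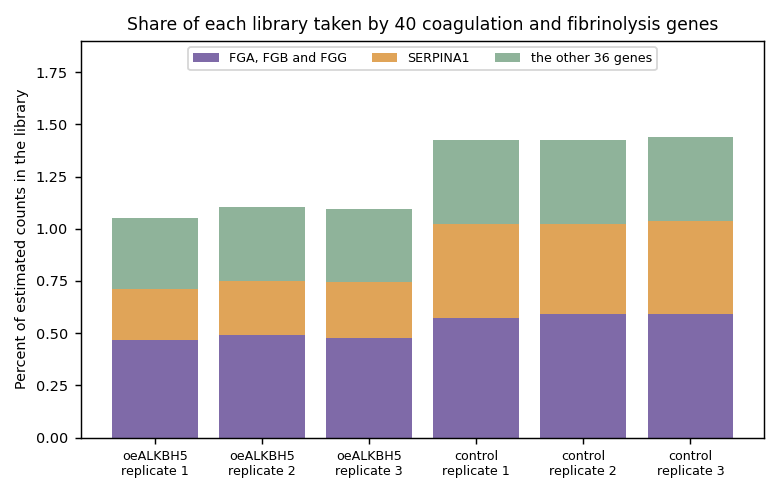
Percent of all estimated counts (vertical axis) taken in each of the 6 libraries (horizontal axis) by the fibrinogen genes, SERPINA1 and the other 36 genes, stacked from 0. The oeALKBH5 bars reach 1.05% to 1.10% and the control bars 1.42% to 1.44%.

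In FPKM, the authors' unit scaled by transcript length and library size, the order of levels was nearly shared by the groups. SERPINA1 was highest at 1361 ± 74.8 FPKM in oeALKBH5 and 2336 ± 59.2 FPKM in control (SD, n = 3 each). The fibrinogen genes came next, between 503 and 717 FPKM in oeALKBH5 and between 645 and 822 FPKM in control. FGA was above FGB in oeALKBH5 (717 ± 9.80 against 644 ± 20.6 FPKM), while in control the same genes stood within their combined spread, at 803 ± 5.10 and 822 ± 19.6 FPKM. A2M, FGL1, F2, SERPINF2 and PROS1 followed, all between 99.3 and 183 FPKM in either group. The lowest were HRG, KLKB1, PLAT, F8 and THBD, each under 1 FPKM on average. HRG and KLKB1, and PLAT and F8, lay within their spread of each other. SERPINC1 ranked 25th in oeALKBH5 and 21st in control.

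Among the procoagulant genes 9 fell, 2 rose and 4 did not pass, with a median log2 fold change of -0.25. The fibrinogen genes are the base of this group: FGA, FGB and FGG encode the alpha, beta and gamma chains, which are assembled into 1 secreted protein. FGB was at 2181, 2308 and 2260 CPM in oeALKBH5 and at 2970, 3067 and 3058 CPM in control. Every oeALKBH5 library was below every control. Its log2 fold change was -0.43 (SE 0.0434, edgeR adjusted p = 1.66e-07), a level 1.35-fold lower. FGG was at 787, 854 and 862 CPM in oeALKBH5 and 1112, 1128 and 1146 CPM in control, a log2 fold change of -0.44 (SE 0.0458). FGA was at 1573, 1572 and 1559 CPM in oeALKBH5 and 1861, 1866 and 1868 CPM in control, and fell by 0.25 on the log2 scale (SE 0.0415). All 3 genes were without overlap between groups, and FGA had the small SD of 7.42 CPM among oeALKBH5 libraries and 3.51 CPM among controls.

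The 3 fibrinogen genes lie side by side on chromosome 4 of GRCh38, from 154562956 to 154612967 in the GENCODE 29 annotation, with FGB on the plus strand and FGA and FGG on the minus strand. Their promoters are shown because the genes form 1 cluster and fell together; each sequence is from RefSeq (GRCh38.p14), runs 5′ to 3′ on the gene's strand, and covers 250 bases before the start site and 50 from it. RefSeq gives FGB 2 starts, and the one whose first bases lie in a GENCODE 29 transcript is shown. Capitals mark matches on either strand to the searched motifs: the C/EBP motifs TTGCGCAA and TTNNGNAAT, the HNF4 direct repeat, the HNF4 variant CAAAGTCCA, and the hormone response half-site AGGTCA, which is contained in the HNF4 direct repeat.
FGA promoter, chr4:154590693-154590992, minus strand: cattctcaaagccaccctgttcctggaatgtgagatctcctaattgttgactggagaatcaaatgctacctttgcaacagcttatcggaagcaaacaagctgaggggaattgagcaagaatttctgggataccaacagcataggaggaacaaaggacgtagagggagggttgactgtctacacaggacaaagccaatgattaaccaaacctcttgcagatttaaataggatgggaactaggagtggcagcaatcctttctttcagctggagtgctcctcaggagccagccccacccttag
FGB promoter, chr4:154562761-154563060, plus strand: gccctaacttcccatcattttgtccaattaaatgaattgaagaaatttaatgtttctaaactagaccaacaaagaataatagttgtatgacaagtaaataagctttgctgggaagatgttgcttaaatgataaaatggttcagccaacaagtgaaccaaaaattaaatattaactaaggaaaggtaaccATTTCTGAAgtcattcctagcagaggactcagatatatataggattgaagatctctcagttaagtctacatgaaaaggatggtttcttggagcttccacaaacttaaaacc
FGG promoter, chr4:154612607-154612906, minus strand: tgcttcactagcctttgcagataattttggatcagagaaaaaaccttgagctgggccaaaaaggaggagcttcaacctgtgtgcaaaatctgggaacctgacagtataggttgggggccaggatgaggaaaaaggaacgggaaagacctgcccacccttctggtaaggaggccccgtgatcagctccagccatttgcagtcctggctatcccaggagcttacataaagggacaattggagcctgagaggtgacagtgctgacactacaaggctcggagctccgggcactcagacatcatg
The FGB window holds a loose C/EBP match from -61 to -53, counted from the start site as 0, and the FGA and FGG windows held none of these letters. Of the 41 genes, 34 were in the promoter table, which covers 27305 genes. The loose C/EBP motif was in 5 of 34 (14.7%, against 13.2% of all genes) and the hormone response half-site in 6 (17.6% against 16.5%). CAAAGTCCA was found for F10 and PROZ (5.88% against 0.472%), and TTGCGCAA and the HNF4 direct repeat for 0 members, against 0.172% and 0.0293% of all genes. These matches are descriptions of the letters and not of binding.

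FGL1, the fibrinogen-like liver protein hepassocin, was at 152, 148 and 163 CPM in oeALKBH5 and 221, 221 and 216 CPM in control. All oeALKBH5 libraries were lower, and the log2 fold change was -0.51 (SE 0.0476) at an edgeR adjusted p of 6.60e-08. FGL1 is listed with the procoagulant genes but is not itself a clotting factor.

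The contact system starts clotting on charged surfaces in the test tube and releases bradykinin. KNG1, which encodes kininogen, was at 130, 135 and 128 CPM in oeALKBH5 and at 199, 194 and 201 CPM in control. This was the deepest fall among the procoagulant genes, 1.51-fold (log2 fold change -0.60, SE 0.0455, edgeR adjusted p = 3.40e-09), with no overlap between groups. F12, encoding the factor that kininogen helps to activate, averaged 127 ± 6.70 CPM in oeALKBH5 and 158 ± 5.62 CPM in control and fell by 0.32 (log2, SE 0.0499). F11, the protease activated by factor XII or thrombin, moved the other way. It was at 11.6, 12.1 and 11.8 CPM in oeALKBH5 and at 6.93, 8.87 and 8.02 CPM in control, 1.49-fold higher (log2 fold change 0.58, SE 0.103, edgeR adjusted p = 1.65e-04). All oeALKBH5 libraries exceeded all controls, and the controls were the more variable group. KLKB1, the prekallikrein gene 7.5 kb from F11 on chromosome 4, averaged 1.51 ± 0.184 CPM in oeALKBH5 and 1.54 ± 0.479 CPM in control and did not pass. The F11 promoter is shown as that of the member with the largest rise, and it held none of the searched motifs.
F11 promoter, chr4:186265939-186266238, plus strand: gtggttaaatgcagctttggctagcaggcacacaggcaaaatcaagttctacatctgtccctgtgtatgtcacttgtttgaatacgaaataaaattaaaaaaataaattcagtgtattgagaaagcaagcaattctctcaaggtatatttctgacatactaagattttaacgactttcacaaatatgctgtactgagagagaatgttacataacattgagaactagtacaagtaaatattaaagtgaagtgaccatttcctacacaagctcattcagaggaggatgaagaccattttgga

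Vitamin K-dependent factors need gamma-carboxylation to bind membranes. Their mRNAs did not move as a block: F7 rose, F2 and F10 fell, and PROC, PROS1 and PROZ did not pass. F2, the prothrombin gene, was at 280, 266 and 280 CPM in oeALKBH5 and 325, 313 and 315 CPM in control (log2 fold change -0.21, SE 0.0444). F10, encoding the factor that converts prothrombin, was at 55.8, 57.2 and 64.2 CPM in oeALKBH5 and 85.3, 71.8 and 84.2 CPM in control. It fell by 0.44 on the log2 scale (SE 0.0693, edgeR adjusted p = 8.24e-05). F7, which starts the extrinsic pathway with tissue factor, was at 47.5, 50.5 and 53.7 CPM in oeALKBH5 and 45.0, 41.4 and 41.4 CPM in control, a rise of 0.25 on the log2 scale (SE 0.0608, edgeR adjusted p = 0.00276). F7, F10 and PROZ are neighbours on chromosome 13, with 2.1 kb between F7 and F10 and 9.1 kb between F10 and PROZ. The adjacent F7 and F10 changed in opposite directions, and PROZ did not pass (log2 fold change 0.03, SE 0.114).

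F13B, the carrier subunit of the fibrin-crosslinking factor XIII, averaged 23.7 ± 2.86 CPM in oeALKBH5 and 28.9 ± 2.45 CPM in control and fell by 0.29 (log2, SE 0.0862, edgeR adjusted p = 0.0121). Its call was lost with library size alone as scaling and without control replicate 2 (adjusted p up to 0.0667). F5, the cofactor of factor Xa, did not pass (log2 fold change -0.07, SE 0.0477), nor did F3, the tissue factor gene (0.03, SE 0.0914). F8 was at 1.56 ± 0.440 CPM in oeALKBH5 and 1.35 ± 0.221 CPM in control, from 22 to 39 counts in oeALKBH5 and 22 to 30 in control, and did not pass (SE 0.255).

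The inhibitors showed the widest range. Of 11 tested anticoagulants and protease inhibitors 4 fell, 1 rose and 6 did not pass, with a median log2 fold change of 0.0046. SERPINC1 encodes antithrombin, the main inhibitor of thrombin and factor Xa. It was at 17.6, 20.7 and 21.3 CPM in oeALKBH5 and at 56.2, 57.0 and 54.1 CPM in control. The highest oeALKBH5 library was below the lowest control by more than the spread of either group. The fall was 2.81-fold (log2 fold change -1.49, SE 0.0690, edgeR adjusted p = 2.20e-12), the largest change among the 39 genes, and its FPKM were 13.1 ± 1.32 in oeALKBH5 and 34.9 ± 1.07 in control.

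SERPINA1, encoding alpha-1 antitrypsin, an abundant serpin that chiefly blocks neutrophil elastase, was at 2362, 2522 and 2637 CPM in oeALKBH5 and 4655, 4383 and 4579 CPM in control. The fall was 1.81-fold (log2 fold change -0.86, SE 0.0481, edgeR adjusted p = 3.06e-11), without overlap. A2M, encoding the broad protease trap alpha-2-macroglobulin, was at 536, 540 and 527 CPM in oeALKBH5 and 885, 838 and 862 CPM in control, 1.61-fold lower (log2 fold change -0.69, SE 0.0432). SERPINA10, the protein Z-dependent inhibitor of factor Xa, averaged 14.9 ± 0.758 CPM in oeALKBH5 and 18.0 ± 0.314 CPM in control and fell by 0.27 (log2, SE 0.0773, edgeR adjusted p = 0.00813). Its call was lost with library size alone as scaling (adjusted p = 0.050008) and in the limma test on FPKM (adjusted p = 0.122). SERPINA10, SERPINA1 and SERPINA5 lie in a cluster on chromosome 14, and SERPINA5, the protein C inhibitor gene, did not pass (-0.12, SE 0.0502, edgeR adjusted p = 0.0568) although its groups did not overlap. SERPINA5 was called lower under 2 alternatives, with an edgeR adjusted p down to 0.0387.

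Among the other natural anticoagulants, TFPI alone passed, and it rose. TFPI, which blocks the tissue factor and factor VIIa complex, was at 109, 121 and 110 CPM in oeALKBH5 and 87.3, 96.3 and 97.4 CPM in control. All oeALKBH5 libraries were above all controls, and the log2 fold change was 0.28 (SE 0.0554) at an edgeR adjusted p of 4.61e-04. SERPIND1, the heparin cofactor II gene, stood at 148 ± 5.81 CPM in oeALKBH5 and 148 ± 3.92 CPM in control. PROC, the protein C gene, averaged 69.0 ± 4.41 CPM in oeALKBH5 and 67.8 ± 1.13 CPM in control, and its cofactor gene PROS1 averaged 353 ± 25.6 CPM in oeALKBH5 and 343 ± 11.3 CPM in control. Neither passed, and neither did TFPI2 (log2 fold change 0.10, SE 0.130). THBD, the endothelial receptor that activates protein C through thrombin, had 0, 3 and 4 counts in oeALKBH5 and 0, 0 and 1 in control and was not tested.

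**Figure D3:**
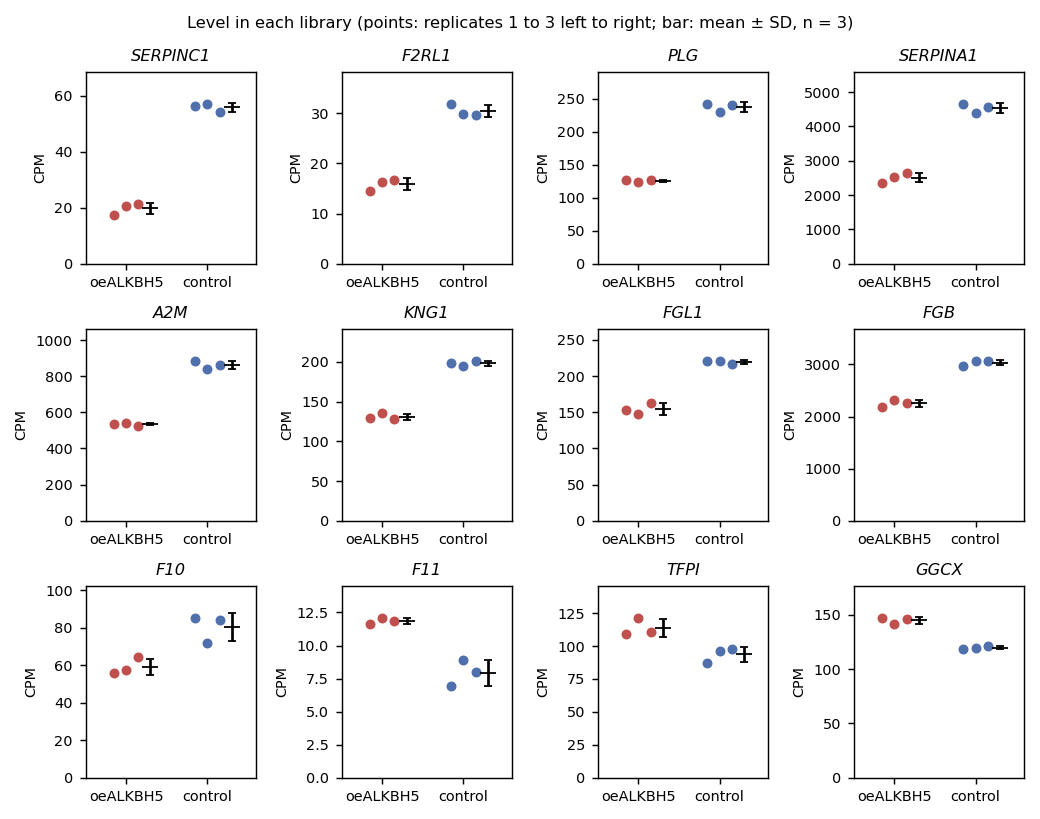
Level in CPM (vertical axes from 0) of 12 genes in each library, oeALKBH5 left and control right; points are replicates 1 to 3 and the bar beside them is the mean ± SD (n = 3). In all 12 panels the groups do not overlap, but the genes shown were picked from those that passed. Groups did not overlap for 23 of the 39 tested members and for 52.8% of all tested genes. SERPINC1 sits between 17.6 and 21.3 CPM in oeALKBH5 and between 54.1 and 57.0 CPM in control. F11, TFPI and GGCX are higher in oeALKBH5.

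Of the 7 fibrinolysis genes 3 fell, 0 rose and 4 did not pass, where 22% of all tested genes fell and 20.8% rose. The median log2 fold change was 0.10. All 4 that did not pass had positive estimates: PLAT 0.43, PLAU 0.23, HRG 0.18 and PLAUR 0.10. DESeq2 and limma-voom also called 0 higher, and by edgeR 0 were higher at an unadjusted p under 0.05. The limma test on FPKM called 1 higher (PLAUR, adjusted p = 0.0300), and edgeR called 1 higher (PLAU) without oeALKBH5 replicate 1. PLG, which encodes plasminogen, was at 126, 124 and 127 CPM in oeALKBH5 and 242, 229 and 241 CPM in control. The fall was 1.88-fold (log2 fold change -0.91, SE 0.0454, edgeR adjusted p = 4.90e-12), and the SD of the oeALKBH5 libraries was 1.48 CPM. SERPINF2, the gene of the plasmin inhibitor alpha-2-antiplasmin and the most abundant of this group, was at 244, 258 and 269 CPM in oeALKBH5 and 298, 297 and 298 CPM in control, a smaller fall (-0.21, SE 0.0462). CPB2, whose product (TAFI) protects fibrin from plasmin, was called lower (-0.19, SE 0.0705, edgeR adjusted p = 0.0387), but its groups overlapped, at 46.8, 54.8 and 57.2 CPM in oeALKBH5 and 56.9, 59.5 and 64.7 CPM in control. The CPB2 call was lost under 7 alternatives, with an adjusted p of up to 0.218.

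The genes on the activator side had few counts. PLAU, the urokinase gene, averaged 6.55 ± 1.18 CPM in oeALKBH5 and 5.59 ± 0.761 CPM in control, and its receptor gene PLAUR 5.15 ± 0.538 CPM in oeALKBH5 and 4.80 ± 0.252 CPM in control. PLAT, the tissue plasminogen activator gene, had 17 to 19 counts in oeALKBH5 and 7 to 20 in control. HRG, the plasma histidine-rich glycoprotein gene 39036 bases from KNG1 on chromosome 3, had 27 to 45 counts in oeALKBH5 and 26 to 35 in control. None of these 4 passed (the edgeR adjusted p of PLAU, the lowest of them, was 0.209), and the SE of their log2 fold changes ran from 0.134 to 0.340.

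F2R and F2RL1 encode the protease-activated receptors PAR1, cut by thrombin, and PAR2, cut by trypsin-like proteases including the tissue factor complex. They lie 83.2 kb apart on chromosome 5. F2R, the more abundant by FPKM (16.2 ± 0.909 against 5.80 ± 0.435 for F2RL1 in oeALKBH5), was at 55.5, 61.5 and 57.7 CPM in oeALKBH5 and 61.0, 58.4 and 58.4 CPM in control, with overlapping groups (log2 fold change -0.03, SE 0.0547). F2RL1 was at 14.4, 16.3 and 16.6 CPM in oeALKBH5 and 31.8, 29.9 and 29.6 CPM in control, 1.93-fold lower (log2 fold change -0.94, SE 0.0742, edgeR adjusted p = 5.05e-09). The F2RL1 promoter is shown as that of the largest fall among genes in the promoter table, and it held none of the searched motifs.
F2RL1 promoter, chr5:76818780-76819079, plus strand: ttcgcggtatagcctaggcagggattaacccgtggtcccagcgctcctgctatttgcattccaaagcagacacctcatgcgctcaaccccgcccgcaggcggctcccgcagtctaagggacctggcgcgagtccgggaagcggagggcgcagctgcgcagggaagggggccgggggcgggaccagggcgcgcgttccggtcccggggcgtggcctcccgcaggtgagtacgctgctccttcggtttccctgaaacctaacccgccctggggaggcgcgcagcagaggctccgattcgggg

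The proteins that carboxylate and export clotting factors went both ways: 2 genes rose, 1 fell and 1 did not pass. GGCX, the gamma-carboxylase gene, was at 147, 141 and 146 CPM in oeALKBH5 and 119, 119 and 121 CPM in control, 1.21-fold higher (log2 fold change 0.28, SE 0.0453, edgeR adjusted p = 6.56e-05). VKORC1, which recycles vitamin K for it and had the highest FPKM of this group, was at 55.1, 52.3 and 52.1 CPM in oeALKBH5 and 48.0, 49.2 and 48.1 CPM in control. Its groups did not overlap and its call was marginal (0.13, SE 0.0536, edgeR adjusted p = 0.0497); it was lost under 8 alternatives, with an adjusted p of up to 0.146. LMAN1 and MCFD2 form the receptor that carries factors V and VIII out of the endoplasmic reticulum. MCFD2 fell (142, 153 and 153 CPM in oeALKBH5, 180, 174 and 182 CPM in control, log2 fold change -0.26, SE 0.0472), and LMAN1 averaged 231 ± 2.78 CPM in oeALKBH5 and 235 ± 10.2 CPM in control without passing.

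On the authors' FPKM values, tested as log2(FPKM + 1) with limma, 15 genes fell and 6 rose, where 45.9% of 12016 tested genes passed, 16.5% lower and 29.4% higher. HRG, KLKB1, PLAT, F8 and THBD did not reach 1 FPKM in 3 libraries and were not tested here. Fold changes on this scale understate the change of low genes. No further scaling between libraries was applied, and the median log2 difference over all tested genes was 0.056, against 0.0062 by edgeR. F13B, SERPINA10 and CPB2 were no longer called lower, and PLAUR was called higher (log2 difference 0.21, adjusted p = 0.0300). VKORC1 rose by 0.22 with an adjusted p of 0.00222.

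Transcripts of a gene share reads by a model, so their values are less certain than those of genes. Of 117 tested member transcripts of 38 genes, 12 fell and 0 rose by edgeR (5 had an unadjusted p under 0.05 and were higher), where 1.01% of 45502 tested transcripts passed, 0.732% lower and 0.281% higher. The number that fell was 1 without control replicate 3, 2 without control replicate 2 and 0 with the replicate number as a block. Over all tested transcripts these settings called 5, 8 and 0 lower, against 333 in the main fit, so the loss was not particular to the members. KNG1 yields a high and a low molecular weight kininogen by alternative 3′ exons. The transcript of the low molecular weight form (NM_000893.4) was assigned 1357, 1329 and 1257 reads in the oeALKBH5 libraries and 2264, 2209 and 2302 in the control libraries, a fall with log2 fold change -0.81 (SE 0.0449, edgeR adjusted p = 0.00528). That of the high molecular weight form (NM_001102416.3) had 1143, 1277 and 1193 in oeALKBH5 and 1431, 1474 and 1490 in control and did not pass (-0.31, adjusted p = 0.0829). The high molecular weight share of KNG1 counts was therefore 45.7%, 49.0% and 48.7% in oeALKBH5 and 38.7%, 40.02% and 39.3% in control, without overlap. A test of transcripts of a gene against each other, chosen after these values were seen, gave KNG1 an edgeR FDR of 0.0879.

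FGA and FGG also yield alternative forms. The alpha-E form of FGA (NM_000508.5) held 9.70% ± 0.414 of FGA counts in oeALKBH5 and 10.8% ± 0.387 in control (SD, n = 3 each). The gamma prime form of FGG (NM_021870.3), which carries an extended tail that binds thrombin, held 11.9% ± 0.282 of FGG counts in oeALKBH5 and 10.3% ± 0.453 in control. The edgeR FDR for unequal transcript change was 0.725 for FGA and 0.567 for FGG. NM_000295.5 held 20.4% ± 1.14 of SERPINA1 counts in oeALKBH5 and 20.3% ± 0.565 in control, and the 2 main SERPINA1 transcripts both fell (-0.86 and -0.85). In the test of unequal change, CPB2 and KLKB1 passed of 28 member genes, against 1.25% of 9436 genes, and 0 single member transcripts passed, against 0.0605% of 41300 transcripts. Both tested KLKB1 transcripts, and NM_001278541.1 of CPB2, had 0 counts in all libraries of 1 group and 10 to 41 in the other. Counts this low are shared between transcripts by a model, so these 2 passes are uncertain.

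**Figure D4:**
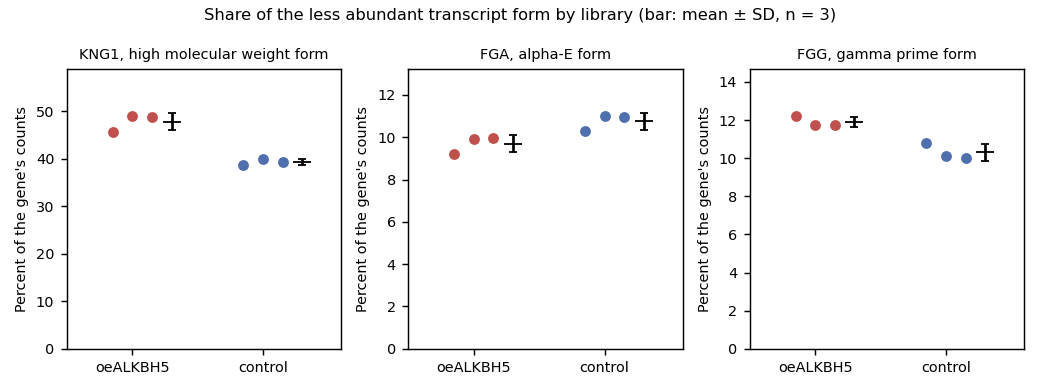
Percent of a gene's estimated counts (vertical axes from 0) assigned to the less abundant transcript form of KNG1, FGA and FGG, oeALKBH5 left and control right; points are replicates 1 to 3 and the bar is the mean ± SD (n = 3). The KNG1 share is 45.7% to 49.0% in oeALKBH5 and 38.7% to 40.02% in control; the FGA share averages 9.70% in oeALKBH5 and 10.8% in control, and the FGG share 11.9% in oeALKBH5 and 10.3% in control.

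Outside the 41 genes, a list of 24 further coagulation genes had 23 in the table and 21 tested: 4 rose, 6 fell and 11 did not pass, with a median log2 fold change of 0.0566. Of all 14168 tested genes, 20.8% rose and 22% fell, so these counts were near those of genes in general. With library size alone 7 rose and 5 fell, where 4266 of all tested genes rose and 2047 fell. FURIN, which cleaves propeptides of vitamin K-dependent factors, rose by 0.16 (log2), and C4BPA, a chain of the protein that binds protein S, by 0.18. ADAMTS13, the protease of von Willebrand factor, rose by 0.32 with overlapping groups (edgeR adjusted p = 0.0482). These calls were not stable: FURIN no longer passed when control replicate 2 was left out (adjusted p = 0.0523), nor did C4BPA under 5 alternatives (adjusted p up to 0.138) or ADAMTS13 under 7 (up to 0.191). The number of genes called higher was 2 without oeALKBH5 replicate 1, control replicate 1 or control replicate 3, and 1 without control replicate 2. S100A10, the annexin A2 partner that binds plasminogen, fell by 0.56, HABP2, a protease that can activate factor VII, by 0.54, the lipid scramblase subunit XKR8 by 0.45 and SERPINE2, protease nexin 1, by 0.29. VWF had a mean of 0.243 CPM in oeALKBH5 and 0.178 CPM in control and was not tested.

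The 3 oeALKBH5 libraries did not contribute equally. Over the 23 genes that passed, replicate 1, with the highest ALKBH5, lay farthest from the control mean for 12 genes, replicate 2 for 7 and replicate 3 for 4. They lay nearest to it for 6, 5 and 12 genes in that order. Over all genes apart from those with low counts, replicate 1 was also farthest from the controls. The chi-square divided by its degrees of freedom was 33.7 to 36.4 for replicate 1, 25.1 to 27.5 for replicate 2 and 21.6 to 23.4 for replicate 3. Any link to the ALKBH5 level was not tested. Without replicate 1, 5 members were called higher and 17 lower, where 2947 of all tested genes were higher and 3098 lower.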

How the data were processed

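Per the labels, messenger RNA libraries were made from 3 oeALKBH5 and 3 control samples. The tools named per the submitters' processing notes are RSEM 1.2.8, HISAT2 2.1.0 and Bowtie2 2.2.5, with GRCh38.p13 as genome build; order and settings are not stated there. The deposited tables hold the authors' estimated counts per transcript, and the authors' FPKM values per transcript, scaled by length and library. F9 was not analysed here.

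Estimated counts were summed by gene ID and then rounded. Of 18030 genes, 17881 had a symbol in the name table, and the 149 without held 0.0264% of counts and stayed in the tests. Genes passing edgeR's filter (minimum count 10) were tested with edgeR 4.0.16 (R 4.3.3; TMM scaling, robust quasi-likelihood, Benjamini-Hochberg adjustment over all 14168 tested genes, threshold 0.05), as were transcripts. FPKM summed by gene, at least 1 in 3 libraries, was tested as log2(FPKM + 1) with limma 3.58.1. DESeq2 1.42.0, limma-voom, other scalings and filters, each library left out and a replicate block were alternatives. The procedure was tested on simulated data.

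The members, the gene lists and the tests were chosen with earlier results of these data known. Values in every library are given for members that passed with a log2 change of at least 0.5 and for the most abundant of each role, and for some others with overlapping or neighbouring values. At most 4 other pathway genes in each direction are named, by p. The biological coefficient of variation was 4.61%, and no library pair agreed within sampling noise. Results for some genes and motifs are not reported here.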

Additional observations from a re-analysis of the deposited data

How the results depend on the processing

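Of the 23 genes that passed, 19 passed under every alternative at an adjusted p under 0.05, 4 lost the call under at least 1 (F13B, SERPINA10, CPB2 and VKORC1), and 0 changed sign. Library size alone gave 5 higher and 15 lower; DESeq2's test gave 4 and 17. Carboxylation and secretion genes called higher were 1 without a filter, with DESeq2's test, with limma-voom and at an adjusted p under 0.01. Other pathway genes called higher were 7 with library size alone and 2 with DESeq2's test. The calls over all genes moved too, from 2948 higher and 3114 lower in the main fit. They were 4266 higher and 2047 lower with library size alone, and 2232 and 2631 with DESeq2's test. The median log2 fold change over all tested genes was 0.0854 with library size alone, against 0.0062 in the main fit. The cause of the changes in the members and the other pathway genes was not tested.

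Leaving out 1 library at a time gave 4 to 5 members higher and 16 to 19 lower, 0 to 1 fibrinolysis genes higher, 1 to 2 carboxylation and secretion genes higher (1 in every case but without oeALKBH5 replicate 3), 1 to 5 other pathway genes higher and 1 to 9 member transcripts lower. Over all tested transcripts, 5 to 135 were lower with 1 library left out. The FURIN call was lost without control replicate 2, C4BPA's under 5 alternatives and ADAMTS13's under 7.

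Direction changed only for genes that had not passed. With library size alone the log2 fold change was 0.0061 for F5, 0.047 for KLKB1, 0.053 for F2R and 0.056 for LMAN1; limma-voom gave KLKB1 0.012, and no filter gave SERPIND1 -0.0016. With 1 library left out, log2 fold changes of either sign were found for F3 (-0.022 to 0.086), F8 (-0.018 to 0.39), KLKB1 (-0.27 to 0.15), PROC (-0.011 to 0.078), PROS1 (-0.0034 to 0.099), PROZ (-0.038 to 0.075), SERPIND1 (-0.020 to 0.035), TFPI2 (-0.0097 to 0.16), HRG (-0.060 to 0.32), F2R (-0.064 to 0.0085) and LMAN1 (-0.056 to 0.0064).

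Deviations of same-numbered libraries were weakly correlated (0.0209, 0.0102 and 0.0227). Each oeALKBH5 library still correlated best with the control of its own number, the other correlations running from -0.0225 to 0.0022. The labels give same-numbered libraries only a shared number, and these values cannot tell whether they share more. With the replicate block 5 members were higher and 19 lower, where 3128 of all tested genes were higher and 3340 lower, against 2948 and 3114 without it. The block left 0 member transcripts lower, and 0 of all 45502 tested transcripts in either direction. In a separate test, chosen after seeing the data, transcripts of 1 gene were compared with each other, and 0 member transcripts were lower. That test measures change relative to the other transcripts of the gene, so a transcript that falls with its gene need not pass. Genes with 1 tested transcript, such as PLG and SERPINC1, are not covered. Its result is therefore not a check on the transcripts called lower in the main fit. Low counts limit F8, KLKB1, PLAT and HRG, and THBD was not testable.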

Other observations

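In 4 of the 117 tested member transcripts the estimated counts were 0 in all libraries of one group and above 0 in all of the other. How common this pattern was over all tested transcripts was not counted, so the 4 cannot be called unusual. For F7, NM_000131.4 had 53, 37 and 57 counts in oeALKBH5 and 0, 0 and 0 in control. For KLKB1, NM_000892.5 had 13, 13 and 10 in oeALKBH5 and 0, 0 and 0 in control, while NM_001318396.2 had 0, 0 and 0 in oeALKBH5 and 18, 14 and 27 in control. For CPB2, NM_001278541.1 had 0, 0 and 0 in oeALKBH5 and 34, 20 and 41 in control. None passed edgeR's transcript test (adjusted p = 0.0894, 0.158, 0.134 and 0.112 in the order given), and counts this low are shared between transcripts by a model. At the gene level KLKB1 had 25 to 32 counts in oeALKBH5 and 19 to 36 in control.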
